A study of Mus musculus with 12 samples.

Results

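The 39 genes described here encode the enzymes of glycolysis and of the pentose phosphate pathway, the enzymes that carry pyruvate to lactate or acetyl-CoA, and HIF-1alpha with its prolyl hydroxylases. They were chosen by name, with earlier results of these data known. Each was represented by the brightest of the probes whose accession names it, and all 39 of 39 were on the array and passed the filter on dim probes, among 20018 named genes on the array and 23124 genes or transcripts tested. The RNA came from alveolar macrophages that were sorted by flow cytometry from bronchoalveolar lavage of female C57BL/6 mice aged 8 to 9 weeks. The 4 genotypes were wild type (WT), Bach1 knockout (Bach1 KO, B1KO in the plots), Bach2 knockout (Bach2 KO, B2KO in the plots) and the double knockout of both genes (DKO, DD in the plots), with 3 independent mice and 3 single-colour Agilent arrays each. Bach1 and Bach2 are related transcriptional repressors. The labels do not state how the alleles were made or whether they act outside macrophages.

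Glycolysis splits glucose to pyruvate and yields ATP and NADH. The pentose phosphate pathway branches from glucose 6-phosphate: its oxidative branch makes NADPH, which serves glutathione reduction, the oxidative burst and lipid synthesis, and its non-oxidative branch exchanges sugars between ribose 5-phosphate and glycolysis. Alveolar macrophages live in an oxygen-rich, glucose-poor airspace and are known for low glycolytic activity at rest. HIF-1alpha is a transcription factor that is stabilised when the prolyl hydroxylases lack oxygen and that induces many glycolytic genes.

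Levels are given as log2 signal minus the 75th percentile of the array, so that 0 is the level of the spot at that percentile and a difference of 1 is a 2-fold difference. Levels of different probes are not compared. Differences were tested with limma's moderated test over the 12 arrays, and one passed where its p, after the Benjamini-Hochberg adjustment across all 23124 tested, was under 0.05. On each array 45.2% to 72.4% of the 59305 spots that are not controls were well above background, and replicate arrays of a genotype correlated with r from 0.940 to 0.988. All 3 DKO arrays lay on a slide of their own that was scanned on another day, so the double knockout cannot be told apart from that slide and scan. Replicates 1 and 2 of Bach2 KO shared 1 slide with all arrays of WT and Bach1 KO, and Bach2 KO replicate 3 lay alone on another with a scan of its own. The probe of Bach1 was 1.43 ± 0.32 (SE) lower in Bach1 KO, which missed the threshold (adjusted p = 0.216), and fell by 1.44 in DKO (adjusted p = 0.00578). No difference of Bach2 passed, so its probe does not check the Bach2 labels.

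All 14 alveolar macrophage markers were well above background on all arrays of each genotype, but 12 of 14 fell in Bach2 KO (median difference -1.52) and 9 of 14 in DKO (median -2.74). The largest falls were of several log2 units: Marco, a scavenger receptor, averaged 7.91 across WT mice against 2.62 for Bach2 KO and -0.19 for DKO, and Siglecf, a sialic acid receptor of these macrophages, 5.74, -0.59 and -2.56. Chil3 and Fabp4 stayed bright, at 8.18 and 6.93 in WT, 7.43 and 6.35 in Bach2 KO and 7.58 and 6.30 in DKO. The summed level of the 14, to which the bright markers contribute most, was 10.8 to 11.2 in WT, 10.3 to 11.1 in Bach1 KO, 9.13 to 9.66 in Bach2 KO and 8.98 to 9.64 in DKO. Of 5 dendritic cell markers on the array, 3 of the 4 tested rose in both Bach2 KO and DKO, and their summed level went from between -1.85 and -0.18 in WT to between 4.95 and 5.39 in Bach2 KO and between 4.02 and 5.44 in DKO. Those that rose were Ccr7 (mean -2.29 in WT, 4.92 in Bach2 KO, 4.46 in DKO), Cd209a (-7.15, 1.47 and -0.02) and Flt3 (-3.76, 1.26 and 0.54), with Cd209a well above background on no WT array. Xcr1, which marks a dendritic cell subset, was well above background on no Bach2 KO array, and Zbtb46, a transcription factor of dendritic cells, lay at -2.89 ± 0.39 (SD, n = 3) in WT and -3.15 ± 0.45 in Bach2 KO. Of the 6 T cell markers tested, 3 rose and 1 fell in both genotypes, and the summed level was 6.29 to 7.20 in WT, 3.80 to 3.96 in Bach2 KO and 2.90 to 3.42 in DKO. That sum follows Cd2, which averaged 6.70 across WT mice against 3.45 for Bach2 KO and 2.42 for DKO, while Cd3d (-7.12, -3.71 and -2.22), Cd3g (-6.85, -2.41 and -1.85) and Lck (-3.26, 0.36 and 1.24) went the other way. Of the 5 neutrophil markers tested, 1 rose and 1 fell in both, with sums of 3.09 to 4.30 in WT, -0.70 to 1.92 in Bach2 KO and 3.07 to 3.93 in DKO. That sum follows the bright markers Mmp8 (mean 3.25 in WT, -1.61 in Bach2 KO, 0.33 in DKO) and S100a8 (1.67, 0.13 and 2.71). S100a9 went the other way from Mmp8 (-6.13, -3.22 and -1.13). It was well above background on 1 of 3 WT arrays and on all arrays of Bach2 KO and DKO. Of the 6 monocyte markers tested, 3 rose in Bach2 KO, where the summed level was 6.31 to 6.68 against 5.78 to 6.43 in WT, and 4 rose in DKO. All 7 proliferation markers fell in both genotypes, from a summed level of 6.92 to 7.90 in WT to 4.38 to 5.02 in Bach2 KO and 2.34 to 2.45 in DKO. For B cells, 1 of 2 markers tested rose in both genotypes. The 5 lung epithelial markers tested gave 1 rise and 2 falls in Bach2 KO, and 1 rise and 1 fall in DKO. Among 5 erythroid and platelet markers tested, 1 rose and 1 fell in both. None of the 5 eosinophil markers passed the filter on dim probes. These marker levels moved with every result below that rests on the loss of Bach2, and their part in those results was not tested. In such bulk RNA, fewer cells of a type and less RNA per cell cannot be told apart.

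The members moved both ways in Bach2 KO: the isozymes Ldhb, Eno2 and Hk3 and the transcription factor gene Hif1a were among those that rose, while Aldoc, the kinases Pdk1 and Pdk2 and all 4 enzymes of the oxidative pentose phosphate branch fell. In Bach2 KO against WT, 9 of 39 members rose, 13 fell and 17 did not pass. The filter on dim probes kept Pfkm and Egln3, which are among the 9, only through genotypes where they were high. Over all genes and transcripts, 37.1% passed in this comparison, 12.4% upward and 24.7% downward. The members' median difference was -0.35 and that of all genes and transcripts -0.30. The balance of rises and falls depended on how arrays were scaled: the members split into 15 higher and 6 lower with quantile normalization, 15 and 5 with no scaling, and 9 and 16 with scaling to the array median. Of all 23124 genes and transcripts, 7860, 6943 and 9287 passed under these scalings, 46.1%, 68.8% and 25.4% of them upward, and the median of all was -0.13, 0.39 and -0.53. The 3 Bach2 KO arrays did not overlap the WT arrays for 29 of 39 members, against 50.5% of all genes and transcripts.

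**Figure D1:**
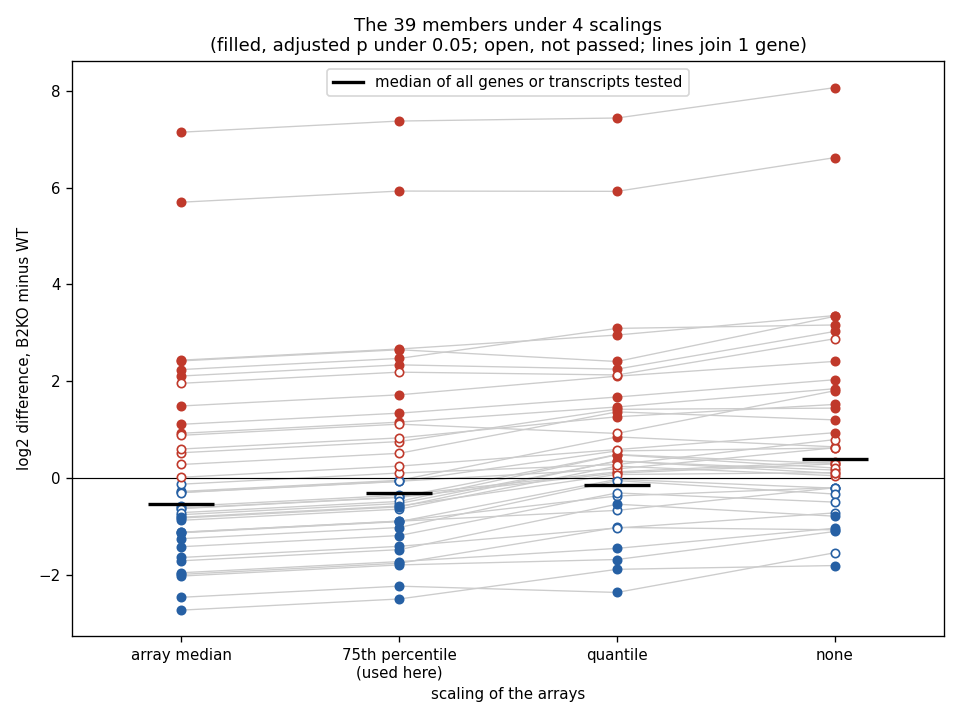
Each point is 1 of the 39 members; the vertical axis is the log2 difference of Bach2 KO minus WT, and the horizontal axis gives 4 ways of scaling the arrays. Filled points passed at adjusted p under 0.05, and the black bars are the median of all genes or transcripts tested, which runs from -0.53 to 0.39; the members with the largest differences keep their sign under all 4 scalings, while those near 0 cross it.

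In DKO against WT, 8 members rose, 10 fell and 21 did not pass, with 27.2% of all genes and transcripts passing, 10.6% upward and 16.6% downward. The members' median was -0.27 and that of all genes -0.28. DKO and WT did not overlap for 20 members, against 44.9% of all. With quantile normalization the split was 12 higher and 5 lower, and with no scaling 10 and 3; of all genes and transcripts 6128 and 4982 passed, 45.7% and 63% of them upward. In Bach1 KO against WT, none of the 39 members passed in limma's test, none had an unadjusted p under 0.05, and 0.0605% of all genes and transcripts passed, 0.0173% upward and 0.0432% downward. The members' differences there ran from -1.59 (Pfkfb2) to 1.10 (Ldhb), with a median of -0.11 against -0.07 for all genes. DKO and Bach2 KO share the WT arrays as their reference, so the values of both comparisons are given side by side and are not independent.

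**Figure D2:**
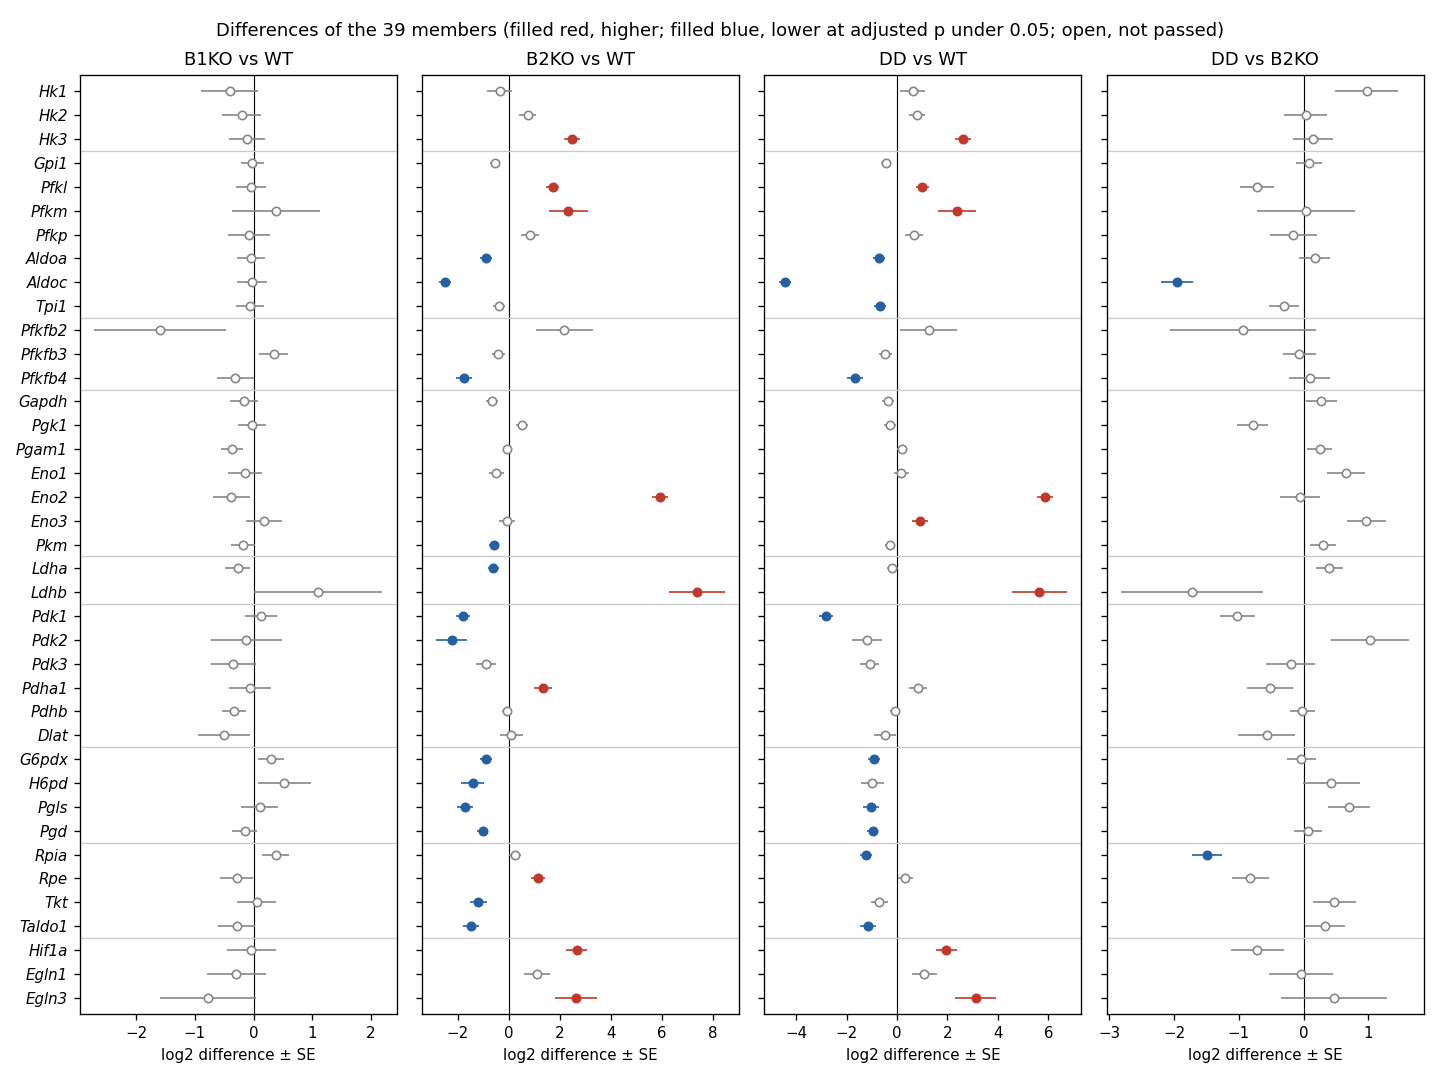
Log2 difference ± SE of each of the 39 members, in rows by role, for 4 comparisons, in columns with horizontal axes of their own. Filled red points rose and filled blue points fell at adjusted p under 0.05; none is filled in the column for Bach1 KO against WT and 2, Aldoc and Rpia, in that for DKO against Bach2 KO.

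Of the calls, 10 of the 22 in Bach2 KO against WT were made in every processing alternative in which the gene was tested and after leaving out any single array: Ldhb, Eno2, Hif1a, Hk3 and Pfkl upward, and Aldoc, Pdk1, Pfkfb4, Pgls and Taldo1 downward. In DKO against WT this held for 7 of 18, namely Hk3, Eno2, Ldhb, Hif1a, Aldoc, Pdk1 and Pfkfb4. Within the shared slide alone, with 2 Bach2 KO arrays against 3 WT arrays, 13 of the 22 calls passed and all 22 had the same sign. Of all 23124 genes and transcripts 4931 passed there, against 8583 with all arrays. The arrays of that slide are also in the main fit that made the 22 calls. Their agreement in sign is therefore no independent support. The plot of levels shows these 10 genes on every array.

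**Figure D3:**
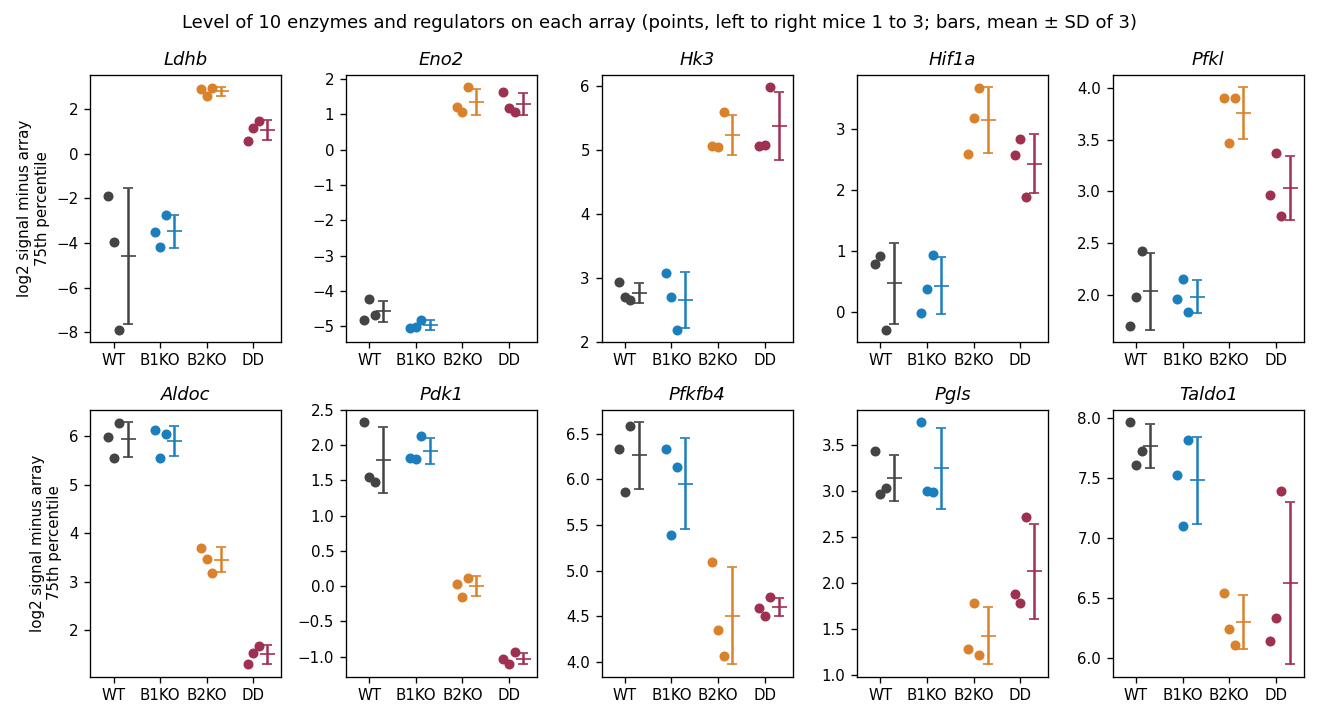
Level of 10 members on each of the 12 arrays (vertical axis, log2 signal minus the array's 75th percentile, each panel with its own range) by genotype. Points are mice 1 to 3 from left to right, and the bar beside them is the mean ± SD of 3; the 3 Bach2 KO points lie apart from the 3 WT points in all 10 panels.

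The promoters of the 2 members with the largest rise and the 2 with the largest fall among those 7 are shown because many glycolytic genes are textbook targets of HIF-1, whose response core is ACGTG or GCGTG. The sequences are the 250 bases before the most upstream start among the gene's promoter windows, 5′ to 3′ on the gene's strand, in assembly GRCm38.p6. For Pdk1 the annotated gene start, 71873215, lies within the last bases of the printed window. Capitals mark the core on either strand.
Eno2 (chr6:124769674-124769923, minus strand): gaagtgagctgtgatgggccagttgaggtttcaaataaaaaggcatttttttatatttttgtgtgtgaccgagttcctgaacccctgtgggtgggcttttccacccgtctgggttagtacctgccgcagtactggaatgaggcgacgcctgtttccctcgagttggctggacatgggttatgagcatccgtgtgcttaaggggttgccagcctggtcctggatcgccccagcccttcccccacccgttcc
Ldhb (chr6:142507958-142508207, minus strand): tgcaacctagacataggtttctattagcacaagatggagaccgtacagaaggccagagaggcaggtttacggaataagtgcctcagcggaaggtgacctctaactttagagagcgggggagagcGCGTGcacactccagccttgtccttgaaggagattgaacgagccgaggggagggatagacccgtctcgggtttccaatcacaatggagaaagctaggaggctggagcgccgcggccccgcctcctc
Aldoc (chr11:78322823-78323072, plus strand): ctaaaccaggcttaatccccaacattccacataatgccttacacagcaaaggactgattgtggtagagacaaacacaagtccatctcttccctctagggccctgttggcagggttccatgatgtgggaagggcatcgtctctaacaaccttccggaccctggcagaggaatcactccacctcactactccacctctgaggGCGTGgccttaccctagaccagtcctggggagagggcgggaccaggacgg
Pdk1 (chr2:71872974-71873223, plus strand): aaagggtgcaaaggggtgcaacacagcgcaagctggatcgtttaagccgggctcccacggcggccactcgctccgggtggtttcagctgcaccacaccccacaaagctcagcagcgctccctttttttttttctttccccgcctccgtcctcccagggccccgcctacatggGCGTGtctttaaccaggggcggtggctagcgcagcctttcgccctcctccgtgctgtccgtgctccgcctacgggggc
The core lies in the upstream window of Ldhb, which rose, and in those of Aldoc and Pdk1, which fell, and is not in that of Eno2, which rose. In windows from 250 bases before to 50 after a start, the core was present in 43 of 56 promoters of the members (76.8%), covering 33 of the 39 genes, and in 43.8% of all 32851 promoters. The members' windows had a median GC content of 60.5% against 52.7% for all; its part in the difference was not tested. The core TGANTCA that Bach factors and AP-1 bind was present in 1.79% of the members' promoters and 7.81% of all. The antioxidant response core TGACNNNGC was present in 8.93% and 12.4%. A match is a run of letters and not evidence of binding.

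Of the 3 hexokinases, 1 rose in Bach2 KO and in DKO. Hexokinases phosphorylate glucose and so trap it in the cell. Hk3, the isozyme known from myeloid cells, lay at 2.94, 2.69 and 2.66 in WT mice 1 to 3, 3.07, 2.70 and 2.19 in Bach1 KO, 5.07, 5.05 and 5.59 in Bach2 KO and 5.07, 5.08 and 5.99 in DKO. The mutants without Bach2 lay above all WT and Bach1 KO arrays, with no overlap. Hk3 rose 5.56-fold in Bach2 KO (log2 difference 2.47 ± 0.31, SE; adjusted p = 0.000122) and 6.13-fold in DKO (2.62 ± 0.31; adjusted p = 6.66e-05). Hk2, the inducible hexokinase, differed by 0.76 ± 0.33 in Bach2 KO and 0.79 ± 0.33 in DKO and did not pass (adjusted p = 0.0949 and 0.0994). Hk2 passed upward in both with quantile normalization (1.42 and 1.17) and without WT replicate 3 (1.06 and 1.09). Hk1, the housekeeping form, differed by -0.35 ± 0.49 and 0.62 ± 0.49, neither of which passed. Another probe of Hk1, well above background on 11 of 12 arrays, differed by 2.02 ± 0.52 in Bach2 KO (adjusted p = 0.0187 over all probes) and 1.59 ± 0.52 in DKO (adjusted p = 0.0685).

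Phosphofructokinase is the committed step of glycolysis, a tetramer of liver, muscle and platelet subunits. The liver subunit Pfkl lay at 1.70, 1.98 and 2.43 in WT, 1.96, 2.15 and 1.84 in Bach1 KO, 3.90, 3.46 and 3.90 in Bach2 KO and 2.97, 3.37 and 2.76 in DKO. All Bach2 KO arrays lay above all others, and all DKO arrays above WT and Bach1 KO. Pfkl rose 3.30-fold in Bach2 KO (adjusted p = 0.00045). In DKO it rose from a mean of 2.03 ± 0.37 (SD, n = 3) in WT to 3.03 ± 0.31 (adjusted p = 0.0137), a call that was lost without WT replicate 1 (0.83) or DKO replicate 2 (0.83).

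The muscle subunit Pfkm, a dim probe, lay at -2.92, -2.54 and -5.82 in WT, -2.64, -3.13 and -4.37 in Bach1 KO, -1.35, -1.81 and -1.10 in Bach2 KO and -1.80, -1.56 and -0.81 in DKO. It was well above background on 2 of 3 WT and 2 of 3 Bach1 KO arrays and on all arrays without Bach2, and WT replicate 3 stood far below the other WT arrays. The filter on dim probes kept Pfkm only through Bach2 KO and DKO, where it was high, so its rise is not independent of the filter. The fitted rise was 2.34 ± 0.75 in Bach2 KO (adjusted p = 0.0303) and 2.37 ± 0.75 in DKO (adjusted p = 0.0366). Without WT replicate 3 these differences were 1.31 and 1.34 and no longer passed. The Bach2 KO call was also lost without Bach2 KO replicate 1 (2.31) or 3 (2.18), and the DKO call without Bach2 KO replicate 1 (2.37) or any DKO array (2.08 to 2.58). The platelet subunit Pfkp differed by 0.83 ± 0.36 and 0.67 ± 0.36 and did not pass. Gpi1, glucose-6-phosphate isomerase, differed by -0.52 ± 0.20 in Bach2 KO (adjusted p = 0.0573), and its 3 probes gave -0.52, -0.50 and -0.49.

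Aldolases split fructose 1,6-bisphosphate into triose phosphates. Aldoc, the isozyme named for brain, lay at 6.00, 5.56 and 6.28 in WT, 6.14, 5.56 and 6.04 in Bach1 KO, 3.70, 3.47 and 3.19 in Bach2 KO and 1.29, 1.53 and 1.67 in DKO. The levels formed 3 steps without overlap: WT with Bach1 KO, then Bach2 KO, then DKO. Aldoc was 5.63-fold lower in Bach2 KO (-2.49 ± 0.25; adjusted p = 2.65e-05) and 21.8-fold lower in DKO (-4.45 ± 0.25; adjusted p = 2.07e-07). DKO against Bach2 KO, with 3.56% of all genes and transcripts passing, 1.45% upward and 2.11% downward, was lower for 2 of the 39 members, Aldoc and Rpia, and higher for none; these groups did not overlap for 13 members, against 35.2% of all. Aldoc fell there by 1.95 (SE 0.25; adjusted p = 0.00148), and that call was made under every alternative and without any single array.

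Aldoa, the widely expressed aldolase, differed by -0.90 ± 0.24 in Bach2 KO (adjusted p = 0.0126), which is 0.59 below the median of all genes. The call was lost without WT replicate 3 (-0.69). With quantile normalization the difference was -0.02. In DKO Aldoa fell by 0.72 (adjusted p = 0.0415), a call that was lost without any 1 of 7 arrays, at values from -0.74 to -0.52: WT replicates 1 and 3, Bach1 KO replicate 1, Bach2 KO replicates 1 and 2 and DKO replicates 1 and 2. Tpi1, triosephosphate isomerase, differed by -0.39 ± 0.24 in Bach2 KO and passed in DKO at -0.69 ± 0.24 (adjusted p = 0.0497). That last call was lost under every alternative but scaling to the array median, and without any 1 of 9 arrays, at -0.75 to -0.48; only the arrays Bach1 KO 2, Bach2 KO 3 and DKO 3 could be left out without losing it.

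The Pfkfb enzymes set the level of fructose 2,6-bisphosphate, the strongest activator of phosphofructokinase. Pfkfb4 lay at 6.33, 5.86 and 6.59 in WT, 6.33, 5.39 and 6.13 in Bach1 KO, 5.10, 4.36 and 4.07 in Bach2 KO and 4.59, 4.51 and 4.71 in DKO. All arrays without Bach2 lay below all arrays with it. The fall was 3.37-fold in Bach2 KO (-1.75 ± 0.32; adjusted p = 0.00152) and 3.16-fold in DKO (-1.66 ± 0.32; adjusted p = 0.00233). Another, dim probe of Pfkfb4, well above background on 3 of 12 arrays, differed by 2.29 ± 0.70 the other way. Pfkfb3, the inducible form, differed by -0.40 ± 0.25 and -0.46 ± 0.25, neither of which passed. Pfkfb2, spread over several log2 units within WT and Bach1 KO, differed by 2.19 ± 1.13 and 1.25 ± 1.13 and did not pass.

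Among the enzymes from glyceraldehyde 3-phosphate to pyruvate, one isozyme of enolase changed most. Eno2, enolase of neurons, lay at -4.82, -4.24 and -4.68 in WT, -5.05, -5.03 and -4.81 in Bach1 KO, 1.21, 1.06 and 1.78 in Bach2 KO and 1.65, 1.18 and 1.06 in DKO. The arrays with and without Bach2 were separated by over 5 log2 units. Eno2 rose 60.9-fold in Bach2 KO (5.93 ± 0.31; adjusted p = 2.69e-07) and 58.7-fold in DKO (5.87 ± 0.31; adjusted p = 1.49e-07). It was well above background on all 3 WT arrays, but on only 2 of 3 Bach1 KO arrays, where its mean was -4.96 against -4.58 in WT. The low side thus lay near the detection limit, which limits the precision of the fold. DKO and Bach2 KO differed by -0.05 ± 0.31, which did not pass.

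The other enolases showed no such rise. Eno1, whose probe may also report a near-identical gene copy, differed by -0.48 ± 0.29 in Bach2 KO and 0.17 ± 0.29 in DKO, and with quantile normalization passed the other way in Bach2 KO (0.48, adjusted p = 0.0155). Eno3 differed by -0.06 ± 0.31 in Bach2 KO and passed in DKO at 0.91 ± 0.31 (adjusted p = 0.0471). The Eno3 call was lost without any 1 of 10 arrays, at 0.65 to 0.96; only WT replicate 3 and DKO replicate 2 could be left out without losing it.

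Gapdh, which makes the NADH of glycolysis and is often used as a reference gene, lay at 7.95, 7.81 and 7.72 in WT, 7.69, 7.27 and 8.04 in Bach1 KO, 7.23, 7.38 and 6.97 in Bach2 KO and 7.10, 7.52 and 7.78 in DKO. Bach2 KO lay below WT on all arrays, and DKO overlapped WT. The difference of -0.64 ± 0.23 in Bach2 KO did not pass (adjusted p = 0.0513). It lies 0.34 below the median of all genes. The 7 probes of Gapdh differed by -0.64 to 0.53 in this comparison, so the reference gene's direction depended on the probe.

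Pkm, pyruvate kinase, lay at 5.09, 4.80 and 5.29 in WT, 5.06, 4.94 and 4.65 in Bach1 KO, 4.52, 4.47 and 4.48 in Bach2 KO and 4.70, 5.02 and 4.66 in DKO. Bach2 KO lay below WT without overlap, and DKO overlapped WT. Pkm was 0.57 ± 0.20 lower in Bach2 KO (adjusted p = 0.0418), 0.27 below the median of all genes, and with quantile normalization and with no scaling the sign turned (0.08 and 0.12). Leaving out any 1 of 8 arrays ended the call, at -0.59 to -0.46: WT replicates 1 and 3, Bach1 KO replicates 1 and 2, any Bach2 KO replicate and DKO replicate 1. Pgk1, the first ATP-making step, differed by 0.51 ± 0.24 and -0.27 ± 0.24, and Pgam1, phosphoglycerate mutase, by -0.04 ± 0.19 and 0.20 ± 0.19. None of these passed in either comparison. With quantile normalization, all 7 enzymes of this stretch were above WT in Bach2 KO and in DKO, and 4 passed in each.

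**Figure D4:**
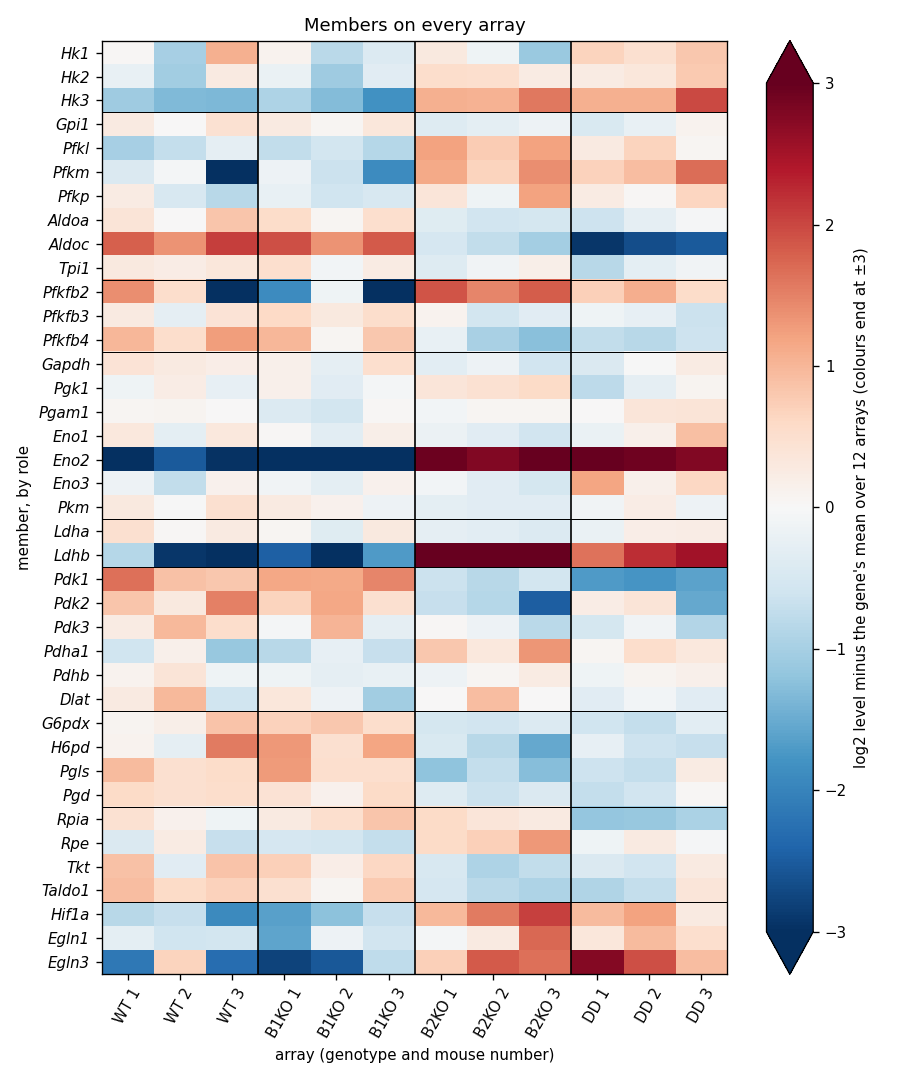
Level of each of the 39 members (rows, by role) on each of the 12 arrays (columns, by genotype), as log2 level minus the gene's mean over the 12 arrays; colours end at ±3. Eno2, Ldhb, Hk3 and Hif1a are high and Aldoc, Pdk1 and Pfkfb4 low on the 6 arrays without Bach2, and WT replicate 3 stands apart from the other WT arrays for Pfkm and Pfkfb2.

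Lactate dehydrogenase joins pyruvate and lactate, and its A and B subunits are known to favour lactate formation and lactate use. Ldhb lay at -1.90, -3.97 and -7.88 in WT, -3.50, -4.20 and -2.75 in Bach1 KO, 2.88, 2.57 and 2.93 in Bach2 KO and 0.57, 1.16 and 1.47 in DKO. Every array without Bach2 lay above every array with it, and 1 WT array was not well above background. The fitted rise in Bach2 KO was 166-fold (7.37 ± 1.10; adjusted p = 0.000433) and that in DKO 50.2-fold (5.65 ± 1.10; adjusted p = 0.00267). Without WT replicate 3, at -7.88 the lowest array, the log2 difference in Bach2 KO was 5.73, below that of Eno2 (5.88 without the same array), and the calls in both genotypes still passed. DKO lay below Bach2 KO on every array, but the difference of -1.73 ± 1.10 did not pass.

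Ldha, the main subunit of glycolytic cells, went with the choice of probe. The probe used differed by -0.59 ± 0.21 in Bach2 KO (adjusted p = 0.0468), while the other probes differed by 1.62 ± 0.45 and 0.93 ± 0.30. The mean of the 3 probes was 0.65 higher and did not pass (adjusted p = 0.0837), and with quantile normalization Ldha was 0.36 higher (adjusted p = 0.0454). Leaving out any 1 of 7 arrays also ended the call, at -0.62 to -0.48: WT replicates 1 and 3, Bach1 KO replicate 1, any Bach2 KO replicate and DKO replicate 2. In DKO the difference was -0.19 ± 0.21 and did not pass, and the mean of the probes rose by 1.12 (adjusted p = 0.0109).

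**Figure D5:**
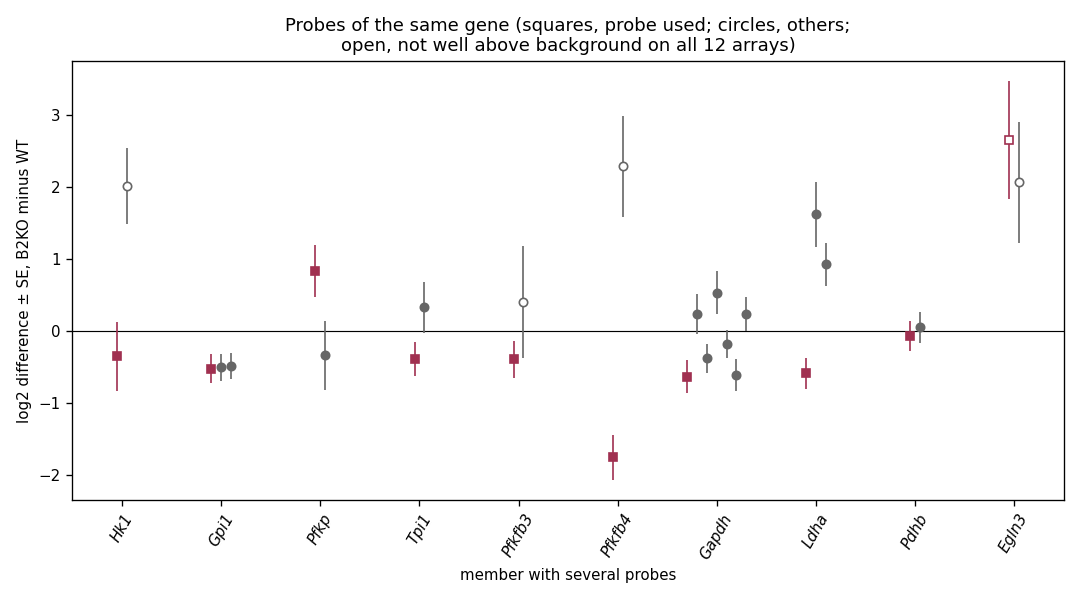
Log2 difference ± SE of Bach2 KO minus WT for every probe of the 10 members with several probes; squares are the probes used, circles the others, and open symbols were not well above background on all 12 arrays. The 3 probes of Gpi1 lie together between -0.52 and -0.49, while those of Ldha (-0.59, 0.93 and 1.62), Hk1 (-0.35 and 2.02) and Pfkfb4 (-1.75 and 2.29) lie on both sides of 0.

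Of the 3 kinases that switch off pyruvate dehydrogenase at the entry to the citric acid cycle, Pdk1 and Pdk2 fell in Bach2 KO and Pdk1 in DKO, and Pdk3 passed in neither. Pdk1, the kinase known as a HIF-1 target, lay at 2.33, 1.55 and 1.48 in WT, 1.82, 1.80 and 2.13 in Bach1 KO, 0.03, -0.15 and 0.12 in Bach2 KO and -1.04, -1.10 and -0.94 in DKO. The order was WT with Bach1 KO, then Bach2 KO, then DKO, without overlap between the 3 steps. Pdk1 was 3.46-fold lower in Bach2 KO (-1.79 ± 0.27; adjusted p = 0.000475) and 7.04-fold lower in DKO (-2.82 ± 0.27; adjusted p = 1.27e-05). The step from Bach2 KO to DKO, -1.03 ± 0.27, did not pass (adjusted p = 0.0614), and passed without WT replicate 1 or WT replicate 3 (-1.03 in both), with quantile normalization (-1.04), in the series matrix values and in a fit of these groups alone.

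Pdk2, the widely expressed kinase, lay at -1.86, -2.40 and -1.18 in WT, -2.03, -1.54 and -2.23 in Bach1 KO, -3.40, -3.56 and -5.16 in Bach2 KO and -2.47, -2.32 and -4.23 in DKO. Bach2 KO lay below WT without overlap, and DKO overlapped WT. The fall in Bach2 KO was 4.68-fold (-2.23 ± 0.60; adjusted p = 0.0137), and the call was lost without Bach2 KO replicate 3 (-1.67) or WT replicate 3 (-1.91). Pdk3 differed by -0.89 ± 0.38 and -1.09 ± 0.38 and did not pass (adjusted p = 0.0891 and 0.054). It passed in Bach2 KO without Bach1 KO replicate 2 (-0.89), and in DKO without Bach1 KO replicate 2 or 3 or Bach2 KO replicate 3 (-1.09 in each).

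Pdha1, the catalytic subunit that these kinases phosphorylate, lay at 1.86, 2.61 and 1.32 in WT, 1.62, 2.21 and 1.77 in Bach1 KO, 3.27, 2.77 and 3.77 in Bach2 KO and 2.52, 2.98 and 2.76 in DKO. Bach2 KO lay above WT without overlap. Pdha1 rose 2.54-fold in Bach2 KO (1.34 ± 0.35; adjusted p = 0.0117), a call lost without Bach2 KO replicate 3 (1.09). In DKO the difference was 0.83 ± 0.35 and did not pass (adjusted p = 0.102), except without WT replicate 2 (1.16). Pdhb, the partner subunit, differed by -0.07 ± 0.20 and -0.09 ± 0.20, and Dlat, the acetyltransferase of the complex, by 0.11 ± 0.44 and -0.47 ± 0.44.

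All 4 enzymes of the oxidative pentose phosphate branch fell in Bach2 KO and 3 of 4 in DKO; with quantile normalization and with no scaling all 4 stayed below WT in both, but 1 of 4 passed in Bach2 KO and 0 of 4 in DKO. With scaling to the array median 4 and 3 passed. G6pdx, the rate-limiting dehydrogenase, lay at 4.35, 4.44 and 5.11 in WT, 4.96, 5.06 and 4.78 in Bach1 KO, 3.73, 3.68 and 3.84 in Bach2 KO and 3.67, 3.54 and 3.94 in DKO. Every array without Bach2 lay below every array with it. G6pdx fell by 0.88 (SE 0.23; adjusted p = 0.0111) in Bach2 KO and by 0.92 (SE 0.23; adjusted p = 0.0116) in DKO, which is 0.58 and 0.64 below the median of all genes. With quantile normalization its differences were -0.37 and -0.58 and did not pass.

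Pgls, the lactonase of the second step, lay at 3.44, 2.97 and 3.04 in WT, 3.76, 3.00 and 2.99 in Bach1 KO, 1.28, 1.78 and 1.21 in Bach2 KO and 1.88, 1.78 and 2.72 in DKO. All arrays without Bach2 lay below all others. The fall was 3.30-fold in Bach2 KO (-1.72 ± 0.32; adjusted p = 0.00184) and 2.03-fold in DKO (-1.02 ± 0.32; adjusted p = 0.0342). The DKO call was lost without WT replicate 1 (-0.87), WT replicate 3 (-1.07), DKO replicate 1 (-0.89) or DKO replicate 2 (-0.85).

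Pgd, the second NADPH-making dehydrogenase, fell by 1.02 (SE 0.22; adjusted p = 0.00408) in Bach2 KO and by 0.96 (SE 0.22; adjusted p = 0.00668) in DKO, and its difference in Bach2 KO was -0.05 with quantile normalization. H6pd, the enzyme of the endoplasmic reticulum, lay at 3.40, 3.02 and 4.85 in WT, 4.60, 3.78 and 4.47 in Bach1 KO, 2.83, 2.46 and 1.75 in Bach2 KO and 3.05, 2.67 and 2.61 in DKO. WT replicate 3 stood above the other WT arrays, and DKO overlapped WT. H6pd was 1.41 ± 0.45 lower in Bach2 KO (adjusted p = 0.0281). Without WT replicate 3 the difference was -0.86 and did not pass, and the call was also lost without Bach2 KO replicate 2 (-1.46) or 3 (-1.11). In DKO it was 0.98 lower and passed only when WT replicate 2 was left out (-1.34).

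The non-oxidative branch moved in both directions. Taldo1, transaldolase, lay at 7.97, 7.61 and 7.73 in WT, 7.53, 7.10 and 7.82 in Bach1 KO, 6.54, 6.24 and 6.11 in Bach2 KO and 6.14, 6.33 and 7.40 in DKO. Bach2 KO and DKO both lay below WT, and DKO replicate 3 reached into the Bach1 KO range. The fall was 2.78-fold in Bach2 KO (-1.47 ± 0.31; adjusted p = 0.00388) and 2.22-fold in DKO (-1.15 ± 0.31; adjusted p = 0.0176). The DKO call was lost without WT replicate 1 (-1.05) or DKO replicate 1 (-0.91) or 2.

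Tkt, transketolase, lay at 6.79, 5.59 and 6.77 in WT, 6.65, 6.12 and 6.55 in Bach1 KO, 5.44, 4.99 and 5.18 in Bach2 KO and 5.49, 5.35 and 6.19 in DKO. WT replicate 2 was the lowest WT array and close to Bach2 KO. Tkt was 1.18 ± 0.34 lower in Bach2 KO (adjusted p = 0.0176), a call lost without WT replicate 1 (-0.98), WT replicate 3 (-0.99) or Bach2 KO replicate 2 (-1.08). In DKO the difference of -0.71 ± 0.34 did not pass, except without WT replicate 2 (-1.11). Rpe, the epimerase of ribulose 5-phosphate, rose by 1.16 ± 0.29 in Bach2 KO (adjusted p = 0.00867) and differed by 0.33 ± 0.29 in DKO.

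Rpia, the isomerase that makes ribose 5-phosphate, was low in the double knockout. It lay at 2.88, 2.56 and 2.30 in WT, 2.70, 2.92 and 3.25 in Bach1 KO, 3.01, 2.78 and 2.70 in Bach2 KO and 1.26, 1.28 and 1.48 in DKO. The 3 DKO arrays lay below the other 9, which overlapped each other. Rpia differed by 0.38 ± 0.23 in Bach1 KO and 0.25 ± 0.23 in Bach2 KO, neither of which passed, and fell by 1.24 (SE 0.23; adjusted p = 0.00211) in DKO. It fell by 1.49 (SE 0.23; adjusted p = 0.00508) in DKO against Bach2 KO. The slide and scan that hold all DKO arrays cannot be told apart from this difference.

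The interaction of the genotypes, which asks whether the double knockout differs from the sum of both single ones, passed for 0.675% of all genes and transcripts, 0.104% upward and 0.571% downward. Among the members it passed downward for 2, Aldoc (-1.92 ± 0.35; adjusted p = 0.0328) and Rpia (-1.87 ± 0.33; adjusted p = 0.0268), and upward for none. Neither call was made in every alternative. The Aldoc call was lost without WT replicate 1, Bach1 KO replicate 1 or 3, Bach2 KO replicate 1 or 2, or DKO replicate 1 or 2 (-1.95 to -1.80), and the Rpia call without Bach1 KO replicate 2 or 3, Bach2 KO replicate 1 or 2, or DKO replicate 1 or 2 (-1.89 to -1.72). In DKO against Bach1 KO, with 26.1% of all genes and transcripts passing, 10.9% upward and 15.3% downward, 8 members rose and 9 fell, and the groups did not overlap for 28, against 46.1% of all. These included Eno2 (6.26 ± 0.31), Ldhb (4.55 ± 1.10), Hk3 (2.73 ± 0.31) and Hif1a (1.99 ± 0.41) upward, and Aldoc (-4.42 ± 0.25), Pdk1 (-2.94 ± 0.27), Rpia (-1.62 ± 0.23), Pfkfb4 (-1.35 ± 0.32) and G6pdx (-1.22 ± 0.23) downward. Those 9 calls and the rise of Egln3 passed after leaving out any single array. The other 7 calls were each lost without at least 1 array: Pfkl without DKO replicate 2 (0.88), Pgls without Bach1 KO replicate 1 (-0.87) or DKO replicate 1 or 2 (-0.95 for the latter), Pgd without those or Bach1 KO replicate 3 (-0.77 to -0.65), Pfkfb3 (-0.91 to -0.65) and H6pd (-1.64 to -1.34) without Bach1 KO replicate 1 or 3 or any DKO array, Hk2 without any 1 array but WT replicate 2 or 3 (0.72 to 1.15), and Pgam1 without any 1 array but Bach1 KO replicate 3 or DKO replicate 1 (0.45 to 0.57).

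Of the HIF-1alpha group, Hif1a and Egln3 rose in Bach2 KO and in DKO and Egln1 did not pass. Hif1a lay at 0.79, 0.93 and -0.28 in WT, -0.01, 0.38 and 0.94 in Bach1 KO, 2.59, 3.18 and 3.67 in Bach2 KO and 2.57, 2.83 and 1.89 in DKO. Every array without Bach2 lay above every array with it. Hif1a rose 6.36-fold in Bach2 KO (2.67 ± 0.41; adjusted p = 0.000591) and 3.88-fold in DKO (1.95 ± 0.41; adjusted p = 0.00466). HIF-1alpha is controlled mainly through protein stability, which an RNA array does not measure.

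Egln3, a prolyl hydroxylase that is itself a HIF target, was dim: it was well above background on 1 of 3 WT, 0 of 3 Bach1 KO, 2 of 3 Bach2 KO and 3 of 3 DKO arrays. Its values were -8.03, -5.22 and -8.18 in WT, -8.66, -8.43 and -6.64 in Bach1 KO, -5.17, -4.04 and -4.24 in Bach2 KO and -3.12, -3.96 and -4.95 in DKO. The arrays without Bach2 were the highest, with WT replicate 2 just below them. The filter on dim probes kept Egln3 only through DKO, where it was high, so the tests of its rise are not independent of the filter. The fitted rise was 2.65 ± 0.82 in Bach2 KO (adjusted p = 0.025) and 3.13 ± 0.82 in DKO (adjusted p = 0.0149). The first call was lost without WT replicate 1 (2.21) or 3 (2.13) or Bach2 KO replicate 2 (2.43) or 3 (2.53), and the other without WT replicate 1 (2.68), WT replicate 3 (2.61) or DKO replicate 1 (2.68). Against Bach1 KO, where no array was well above background, DKO was at least 3.11-fold higher (adjusted p = 0.00454), a bound that sets the bright group's mean against the lowest signal well above background on each dim array. Egln1, the main prolyl hydroxylase, differed by 1.12 ± 0.50 and 1.08 ± 0.50 and did not pass.

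Genes next to these pathways, taken from lists of their own, also moved both ways. The counts of each list stand beside the shares over all genes and transcripts. In Bach2 KO against WT 37.1% of all passed, 12.4% upward and 24.7% downward. In DKO against WT 27.2% passed, 10.6% upward and 16.6% downward. Of 8 glucose and lactate transporters tested, 2 rose and 2 fell in Bach2 KO, and 3 rose and 1 fell in DKO. Slc2a1, the basal glucose transporter, rose by 1.86 ± 0.33 in Bach2 KO and 2.34 ± 0.33 in DKO. Slc2a3 was not well above background in WT and was at least 5.83-fold higher in Bach2 KO (adjusted p = 0.0079) and at least 7.24-fold higher in DKO (adjusted p = 0.00637). Slc16a3, the lactate exporter, fell by 2.39 (SE 0.58; adjusted p = 0.00831) in Bach2 KO and differed by -0.83 ± 0.58 in DKO, which did not pass.

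Of 19 HIF pathway genes and hypoxia targets tested, 6 rose and 3 fell in Bach2 KO, and 5 rose and 2 fell in DKO. In either direction 47.4% and 36.8% of the list passed, against 37.1% and 27.2% of all genes and transcripts. Vegfa, a HIF target that drives vessel growth, was not well above background in WT and was at least 82.0-fold higher in Bach2 KO (adjusted p = 3.63e-07) and at least 109-fold higher in DKO (adjusted p = 1.39e-07). P4ha2, a collagen prolyl hydroxylase, was at least 6.10-fold and at least 9.16-fold higher. Car9, a carbonic anhydrase and hypoxia marker, fell by 1.68 in Bach2 KO and by 1.69 in DKO.

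Glycogen and glucose synthesis genes were measured beside these. Of 13 glycogen genes, 5 rose and 5 fell in Bach2 KO, and 2 rose and 5 fell in DKO; Pygl, the phosphorylase that releases glucose 1-phosphate, fell by 3.72 and by 3.95. Of 4 gluconeogenesis genes tested, 2 rose in each. Fbp1, fructose 1,6-bisphosphatase, which opposes phosphofructokinase, rose by 6.15 ± 0.35 in Bach2 KO and 2.14 ± 0.35 in DKO, and was at least 34.3-fold lower in Bach1 KO, where no array was well above background, than in WT (adjusted p = 4.42e-05). Among 18 other glycolysis and pyruvate genes, 3 rose and 5 fell in Bach2 KO, and 3 rose and 4 fell in DKO. Gpd1, which turns the triose phosphate of glycolysis to glycerol 3-phosphate, fell by 2.80 and by 5.39. Of 11 other NADPH and pentose genes, 3 rose and 2 fell in Bach2 KO and 2 rose and 2 fell in DKO; Mthfd2, a mitochondrial folate enzyme, rose by 3.22 ± 0.38 and 3.48 ± 0.38, and Me2, a malic enzyme, fell by 1.85 and by 1.78.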

How the data were processed

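The deposited scanner files hold one spot per line; per the file headers they came from Agilent Feature Extraction 10.7.3.1, while the submitters' processing notes name 9.1. Their processed Cy3 intensities were made by the authors' scanner software, which subtracted background, per the file headers. The deposited series matrix holds log2 values of the same arrays made by the authors; each probe is centred on its median over the 12 arrays, the values correlated with centred scanner values at r = 0.999 and run in the same direction, the columns' medians lie between -0.25 and 0.25, and the scaling between arrays is not stated.

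Intensities were converted to log2 and the array's 75th percentile of spots that are not controls was subtracted. Outlier spots were left out and spots of a probe averaged. Probes that the scanner software called well above background in all 3 mice of some genotype were kept, and the brightest kept probe stood for each gene. A gene dim in WT, such as Vegfa or Slc2a3, was thus kept only through another genotype. Its rise in that genotype is not independent of the filter. RefSeq accessions gave 1 gene name to 26413 of 55681 probes; probes without one were grouped by accession. limma 3.58.1 in R 4.3.3 (lmFit, eBayes with a trend) was fitted over all 12 arrays and 23124 genes or transcripts, with Benjamini-Hochberg adjustment; the adjusted p-values in the text come from this fit, and SE is its moderated standard error. The interaction is DKO minus Bach1 KO minus Bach2 KO plus WT. The script was tested on simulated data. The number of arrays, 3 per genotype, limits the precision. Values in every array are given for the members past the test with the largest differences, for every member past the test in DKO against Bach2 KO or in the interaction, and for Hif1a, Gapdh, G6pdx and Pkm; up to 4 pathway genes per list were named by smallest adjusted p. The members and lists were chosen with earlier results of these data known. Alternatives covered scaling, background correction, filter, probe choice, variance model, threshold, slide, replicate block, the series matrix and leaving out each array.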

Additional observations from a re-analysis of the deposited data

Results flagged for a closer look

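Aldoc and Rpia are listed because limma's interaction term, which compares the effect of losing Bach1 with and without Bach2, passed for both after Benjamini-Hochberg adjustment. Neither call was stable: both were lost with the replicate block (adjusted p = 0.0522 and 0.0556), without a filter (0.0508 and 0.0504), scaled to the array median (0.124 and 0.0832) and in the series matrix values (0.0749 and 0.0557), and that of Aldoc also without a variance trend (0.0606). For Aldoc the interaction was -1.92 ± 0.35 (SE; adjusted p = 0.0328): the level differed by -0.03 ± 0.25 between Bach1 KO and WT and by -1.95 ± 0.25 between DKO and Bach2 KO, and it was lower in 3 of 3 DKO arrays than in every Bach2 KO array. For Rpia it was -1.87 ± 0.33 (adjusted p = 0.0268): the level differed by 0.38 ± 0.23 between Bach1 KO and WT and by -1.49 ± 0.23 between DKO and Bach2 KO, again with 3 of 3 DKO arrays below every Bach2 KO array. All DKO arrays lay on a slide of their own, which cannot be told apart from the genotype in both terms.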

How the results depend on the processing

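In each entry the members higher or lower are counted of 39, beside 9 higher and 13 lower in Bach2 KO against WT, 8 and 10 in DKO against WT, 8 and 9 in DKO against Bach1 KO, 0 and 2 in DKO against Bach2 KO and 0 and 2 in the interaction. In Bach2 KO against WT the higher count was 15 with no scaling, 15 with quantile normalization, 5 on slide 1 alone and 5 with probes well above background on all 12 arrays; the lower count was 6 at adjusted p under 0.01, 5 with no scaling, 6 with quantile normalization, 8 on slide 1 alone and 7 without WT replicate 3 and Bach1 KO replicate 3 together, which was chosen after seeing the data. In DKO against WT the higher count was 4 at adjusted p under 0.01, 5 with only the groups compared and 4 with the all-array filter, and the lower count was 5 at adjusted p under 0.01, 6 with at least a 2-fold difference, 3 with no scaling and 5 with quantile normalization. In DKO against Bach1 KO the higher count was 4 at adjusted p under 0.01 and 4 with the all-array filter, and the lower count 5 at adjusted p under 0.01 and 5 with no scaling. In DKO against Bach2 KO the lower count was 4 with only the groups compared and 4 with quantile normalization. The lower count of the interaction was 0 at adjusted p under 0.01, without a filter, scaled to the array median and in the series matrix values, and 1 without a variance trend and 1 without WT replicate 3 and Bach1 KO replicate 3 together. Leaving out 1 array at a time gave 6 to 9 higher and 7 to 15 lower in Bach2 KO against WT (7 without WT replicate 3), 5 to 8 and 6 to 11 in DKO against WT (5 higher without DKO replicate 1 or WT replicate 1; 6 lower without these or DKO replicate 2), 5 to 9 and 5 to 12 in DKO against Bach1 KO (5 higher without DKO replicate 2; 5 lower without Bach1 KO replicate 1 or DKO replicate 1 or 2), 0 and 2 to 3 in DKO against Bach2 KO, 0 and 0 to 2 in the interaction, and 0 in Bach1 KO against WT. The calls over all genes and transcripts moved as well. For Bach2 KO against WT they were 8583 as reported and 5993 to 9510 without 1 array (6551 without WT replicate 3). They were 4931 on slide 1 alone and 6800 of 16632 tested with the all-array filter. For DKO against WT they were 6284 as reported, 4358 to 7336 without 1 array and 5261 with only the groups compared. For DKO against Bach1 KO they were 6040, and 4170 to 6851 without 1 array.

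Of 39 members, 11 changed sign with quantile normalization and 11 with no scaling in Bach2 KO against WT, and 6 and 5 in DKO against WT; most of these passed neither as reported nor under the alternative. The 4 genes that passed in at least one of them follow. In Bach2 KO against WT, Eno1 was 0.48 with quantile normalization; Pgam1 was 0.85 with quantile normalization and 0.65 with no scaling; Pkm was 0.077 and 0.12; and Ldha was 0.36 and 0.10, and 0.65 as the mean of its probes. In DKO against WT, Ldha was 0.39 with quantile normalization and 1.12 as the mean of its probes. The cause was not tested.

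Over the 4 genotypes, deviations of same-numbered arrays correlated from -0.143 to 0.385 with a median of 0.0348, so not every pair was alike. The 3 same-numbered pairs of Bach2 KO and DKO all did so above 0.1 (0.116, 0.123 and 0.118). Over the 4 genotypes, pairs with different numbers ran from -0.267 to 0.2 with a median of -0.0464, so some lay above those values. The labels give no pairing, and these correlations do not settle whether mice were paired. With the block in limma's fit, Aldoc (adjusted p = 0.00372) and Rpia (adjusted p = 0.0131) passed in DKO against Bach2 KO. With the replicate block the lower count of the interaction was 0, and Pkm (-0.57, adjusted p = 0.0628) and Ldha (-0.59, adjusted p = 0.0654) lost their calls in limma's fit of Bach2 KO against WT. The correction on mean spot signals was not run, since the files used hold median signals; normexp on those, chosen after seeing the data, gave 8 higher and 11 lower in Bach2 KO against WT. Dim probes (Egln3, Pfkm, and Ldhb and Eno2 in WT) limit the precision of their folds.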

Other observations

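The genes outside the 39 whose level followed the members' mean most closely over the 12 arrays were Strap (Pearson r = 0.95), Ada (0.943), Tvp23b (0.926), Trak1 (0.925) and 1700020D05Rik (0.923). This is a description of 12 arrays that share 4 genotypes. Ada encodes adenosine deaminase. The members' mean, centred on each gene's mean, was 0.16 to 0.24 in Bach2 KO, -0.01 to 0.18 in DKO, -0.27 to 0.08 in WT and -0.28 to -0.13 in Bach1 KO. Large differences weigh most in such a mean, as those of Ldhb (7.37) and Eno2 (5.93) in Bach2 KO against WT. In that comparison 23 of the 39 differences were negative and 16 positive, with a median of -0.35. With this scaling, the higher mean in Bach2 KO is therefore not a rise of most members. With quantile normalization and with no scaling, 11 of the 39 changed sign in each, and most members then lay above WT.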
